A study of Mus musculus with 20 samples.

Results

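*Igf1*, its receptor gene *Igf1r*, the acid-labile subunit gene *Igfals* and the IGF binding protein genes *Igfbp1*, *Igfbp2*, *Igfbp3*, *Igfbp4*, *Igfbp5*, *Igfbp6* and *Igfbp7* were followed in mouse liver through every probe set annotated to one of these 10 genes. They were 26 probe sets of the 45101 on the array, which represent 18194 genes, and 0 further probe sets were shared between one of them and another gene. The livers came from 10 *IMP2-2* transgenic (tg) mice, which carry the p62/IMP2-2 splice variant of IGF2BP2 as a liver-specific transgene, and the controls were 10 wild-type (wt) mice. All mice were 5 weeks old, untreated and of the C57Bl6J/DBA2 background, and each liver was read on 1 Affymetrix Mouse Genome array. The promoter that drives the transgene is not named in the labels or the study's methods, and *Igf2bp2* has no probe set of its own here, so overexpression was not checked on these arrays.

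The liver is the main source of the IGF1 that circulates. Growth hormone reaches hepatocytes through its receptor and the transcription factor STAT5B, which raise *Igf1* and *Igfals*. In blood, most IGF1 is held in a complex of IGF1, an IGF binding protein and the acid-labile subunit, while IGFBP1 and IGFBP2 bind IGF1 without that subunit. *Igfbp1* transcription is shut off by insulin and rises on fasting.

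Values are log2 levels after RMA, a normalization that combines the probes of a probe set into 1 value, and levels are compared only between livers on the same probe set. The median of all probe set means was 4.53, and 23 of the 26 probe sets lay above it, the 3 others being *Igf1r* probe sets. Array medians ran from 4.46 to 4.55. The mean of 9 hepatocyte markers was 13.08 to 13.34 in tg livers and 13.08 to 13.29 in wt livers, far above that median. Since whole liver was measured, fewer cells of a type and less RNA per cell cannot be told apart. Of 9 Kupffer cell markers, 5 were higher in tg livers at an adjusted p under 0.05 in limma, as were 1.88% of all probe sets. Their mean was 7.59 to 8.28 in tg and 7.26 to 7.84 in wt livers. The part of these cells in the values of the IGF genes was not tested.

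Some arrays stood close together or apart. The wt arrays wt_1407_2 and wt_1420_6 differed with an SD of only 0.168 over all probe sets, and wt_1407_5 and wt_1420_7 with 0.172. Here ± gives the SD, with n = 10 for tg livers and n = 8 for wt livers, since wt values count each of these pairs once, while the limma fit keeps all 20 arrays, so a fitted difference is not exactly the difference of the printed means. The closest pair of all was tg_1386_9 and wt_1386_4 (0.155), which were kept under their labels. The other pairs had an SD of at least 0.224. The 4 tg_1423_2-8 and wt_1423_2-8 livers (2 of each genotype) had a mean of the clock genes that peak with *Dbp* of 7.49 to 8.28, against 5.79 to 6.17 in the other 16 livers. Whether the 2 arrays of a near-identical pair come from separate mice is not known, and the litters and days behind the arrays are not given, so part of the spread between arrays may be technical.

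The promoters of *Igfbp1* and *Igfbp2* are shown because the levels of both genes varied most between livers. They are RefSeq sequences of build GRCm38.p6, running from 250 bases before to 50 bases after the annotated start. *Igfbp1* lies on the plus strand at chr11:7197537-7197836, and capitals mark the FOXO-type letters CAAAACA and CAAAATA, the second read on the opposite strand as TATTTTG. *Igfbp2*, of which the first of its 2 annotated starts is printed, lies on the plus strand at chr1:72824230-72824529, and capitals mark GGGCGG, the letters of a GC box.
Igfbp1: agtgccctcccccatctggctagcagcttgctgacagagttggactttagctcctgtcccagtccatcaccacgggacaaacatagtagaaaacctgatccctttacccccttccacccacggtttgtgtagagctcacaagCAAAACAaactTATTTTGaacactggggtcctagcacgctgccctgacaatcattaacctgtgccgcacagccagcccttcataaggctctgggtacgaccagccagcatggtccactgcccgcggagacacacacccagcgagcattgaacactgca
Igfbp2: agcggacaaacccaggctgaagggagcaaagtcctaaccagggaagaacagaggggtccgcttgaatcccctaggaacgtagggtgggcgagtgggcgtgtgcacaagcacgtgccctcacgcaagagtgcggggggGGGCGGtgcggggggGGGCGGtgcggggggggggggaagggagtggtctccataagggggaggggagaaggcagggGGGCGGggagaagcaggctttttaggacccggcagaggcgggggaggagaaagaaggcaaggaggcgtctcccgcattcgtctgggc

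The *Igfbp1* sequence held 1 match to CAAAACA, which occurs in 6.28% of 32851 mouse promoters of this length on either strand, and 1 match to CAAAATA, which occurs in 4.36%. All 13 promoter entries of the 10 genes were searched, and no other one held either motif. The *Igfbp2* sequence held 3 GC boxes (35.7% of promoters have 1 or more) and a GC content of 67.0%, against 54.3% for *Igfbp1*. The letters TTCNNNGAA, which STAT factors bind, were found in 8.30% of all promoters and, among these genes, in 2 of the 3 *Igfals* entries. TATAAA (13.6% of promoters) was present once each in the *Igfbp4* and *Igfbp6* sequences. A match describes the letters only. *Igfbp1* and *Igfbp3* are neighbours on chromosome 11 with 3539 bases and 0 genes between them, and *Igfbp2* and *Igfbp5* on chromosome 1 with 5590 bases and 0 genes between them.

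No gene of the group passed the comparison of tg with wt livers in the fit of genotype alone. limma called 0 of the 26 probe sets higher and 0 lower at an adjusted p under 0.05, where 2.55% of all probe sets were called (1.88% higher and 0.663% lower). At an unadjusted p under 0.05, 0 were higher and 2 lower, which is 7.69% of the 26, against 20.4% of all probe sets (9.61% higher and 10.8% lower). In 0 of the 26 did the genotypes fail to overlap, which was so in 0.0798% of all probe sets. The median log2 fold change was -0.01 over the 26 probe sets and -0.03 over all probe sets, with 11 values above 0 and 15 below. For 20 of the 26, the 95% interval of the difference lay within 0.5 log2 units on either side of 0. The 6 others include *Igfbp1* and *Igfbp2*, for which the data leave room for larger differences.

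**Figure D1:**
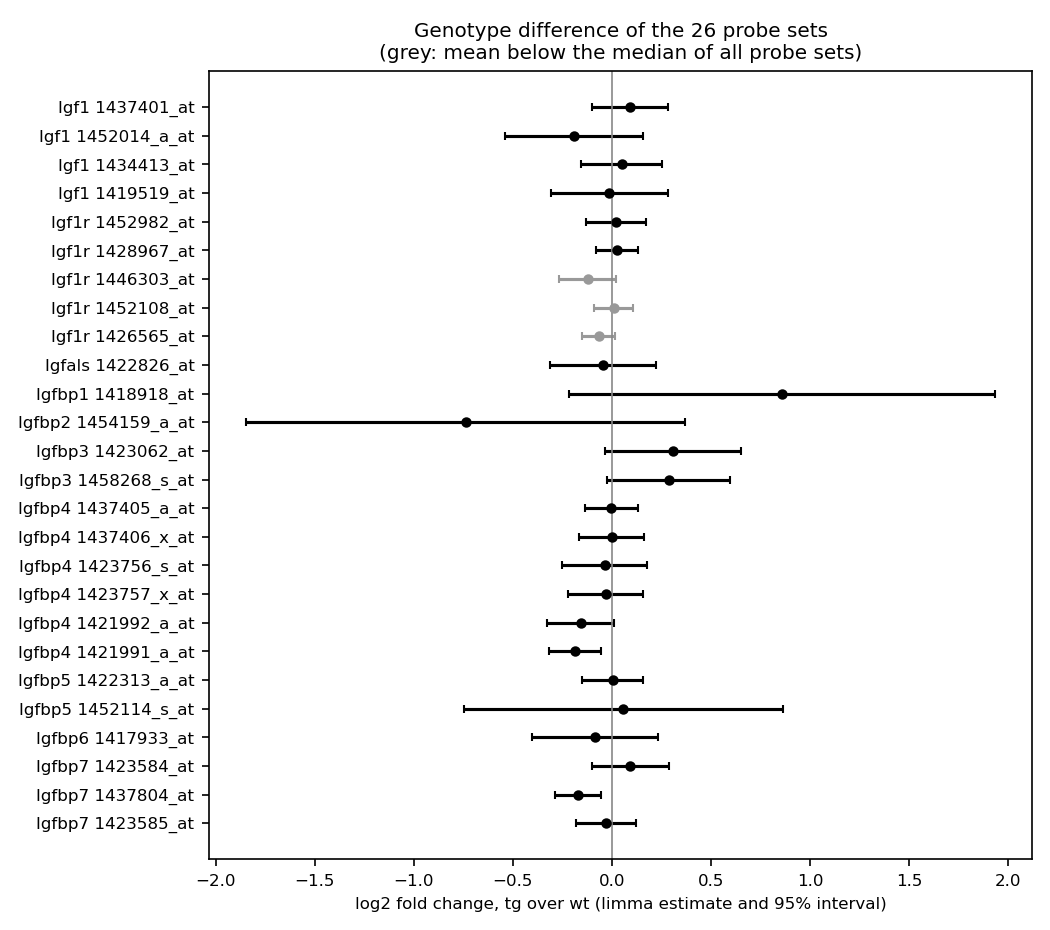
Log2 fold change of the 26 probe sets, tg over wt livers (10 arrays each), with the limma estimate as a point and its 95% interval as a bar. Most intervals lie within 0.5 of 0, while those of Igfbp1 and Igfbp2 are the widest, from -0.22 to 1.93 and from -1.84 to 0.37.

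*Igf1* (chromosome 10) encodes the growth factor itself. Its strongest probe set, 1437401_at, ranged from 11.66 over a median of 12.11 to 12.44 in tg livers and from 11.61 over a median of 12.11 to 12.17 in wt livers. Tg livers averaged 12.09 ± 0.22 (SD, n = 10) and wt livers 12.01 ± 0.21 (SD, n = 8). The log2 difference between genotypes was 0.09 (SE 0.092, 95% interval -0.10 to 0.28, limma adjusted p = 0.615), which bounds the ratio between 0.932 and 1.21. A two-sided permutation test of this probe set gave p = 0.366 over 20 arrays and p = 0.439 with the near-identical wt arrays averaged. The groups overlapped, with 4 tg livers above every wt liver and 1 wt liver below every tg liver. The highest of all was tg_1420_14. The lowest in each genotype were tg_1423_2-8_1 and wt_1423_2-8_9.

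The 3 other *Igf1* probe sets followed the first across livers (r within genotype 0.83 to 0.97 over the 6 pairs of probe sets). Probe set 1434413_at differed by 0.05 (limma adjusted p = 0.815) and 1419519_at by -0.01 (adjusted p = 0.970). Probe set 1452014_a_at averaged 11.86 ± 0.52 in tg livers and 12.04 ± 0.25 in wt livers (-0.19, SE 0.168, limma adjusted p = 0.550), with 3 tg livers below every wt liver. Tg_1420_4 (11.51) and wt_1423_2-8_9 (11.52) were low. The tg_1423_2-8 livers were lower still, with a mean of 10.98, against 11.83 in the wt_1423_2-8 livers. This is the *Igf1* probe set with the largest change of its genotype difference in the tg_1423_2-8 and wt_1423_2-8 livers. That change did not pass (interaction -0.82, SE 0.249, limma adjusted p = 0.0971).

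*Igfals* (chromosome 17), a gene of hepatocytes that encodes the acid-labile subunit, ranged from 8.80 over 9.34 to 9.62 in tg livers and from 8.82 over 9.38 to 9.82 in wt livers. Its log2 fold change was -0.05 (SE 0.130, 95% interval -0.32 to 0.22, limma adjusted p = 0.730). The genotypes covered nearly the same range, with tg_1407_9 the lowest tg liver and wt_1407_5 the lowest wt liver.

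*Igfbp1* (chromosome 11), the insulin-repressed binding protein, differed more between livers than between genotypes. It ranged from 9.52 over a median of 11.11 to 12.24 in tg livers and from 7.04 over a median of 10.01 to 12.21 in wt livers, a 36.8-fold span from the lowest to the highest liver. Tg livers averaged 11.09 ± 0.85 and wt livers 10.10 ± 1.66. The log2 fold change was 0.86 (SE 0.517, 95% interval -0.22 to 1.93, limma adjusted p = 0.362), so a ratio between 0.860 and 3.81 is left. Within label numbers the tg mean was above the wt mean in 6 of 6, by 0.04 to 4.06 with a median of 0.43, each resting on few livers a side. The largest came from wt_1371_4, at 7.04 the lowest liver, without which the log2 fold change was 0.50.

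*Igfbp2* (chromosome 1), an abundant binding protein of fetal serum that adult hepatocytes also make, had the widest spread in tg livers. It ranged from 6.68 over a median of 10.26 to 11.32 in tg livers and from 9.26 over a median of 10.81 to 11.52 in wt livers, a 28.8-fold span. Tg livers averaged 9.80 ± 1.62 and wt livers 10.61 ± 0.82. The log2 fold change was -0.74 (SE 0.533, 95% interval -1.84 to 0.37, limma adjusted p = 0.453). 3 tg livers lay below every wt liver: tg_1423_2-8_4 at 6.68, tg_1423_2-8_1 at 7.38 and tg_1420_4 at 8.94. The other 7 tg livers lay within the wt range. Without these 3 livers the log2 fold change was 0.18. They are the lowest tg values of this gene, so leaving them out raises it by construction. Without the 4 tg_1423_2-8 and wt_1423_2-8 livers it was -0.04.

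**Figure D2:**
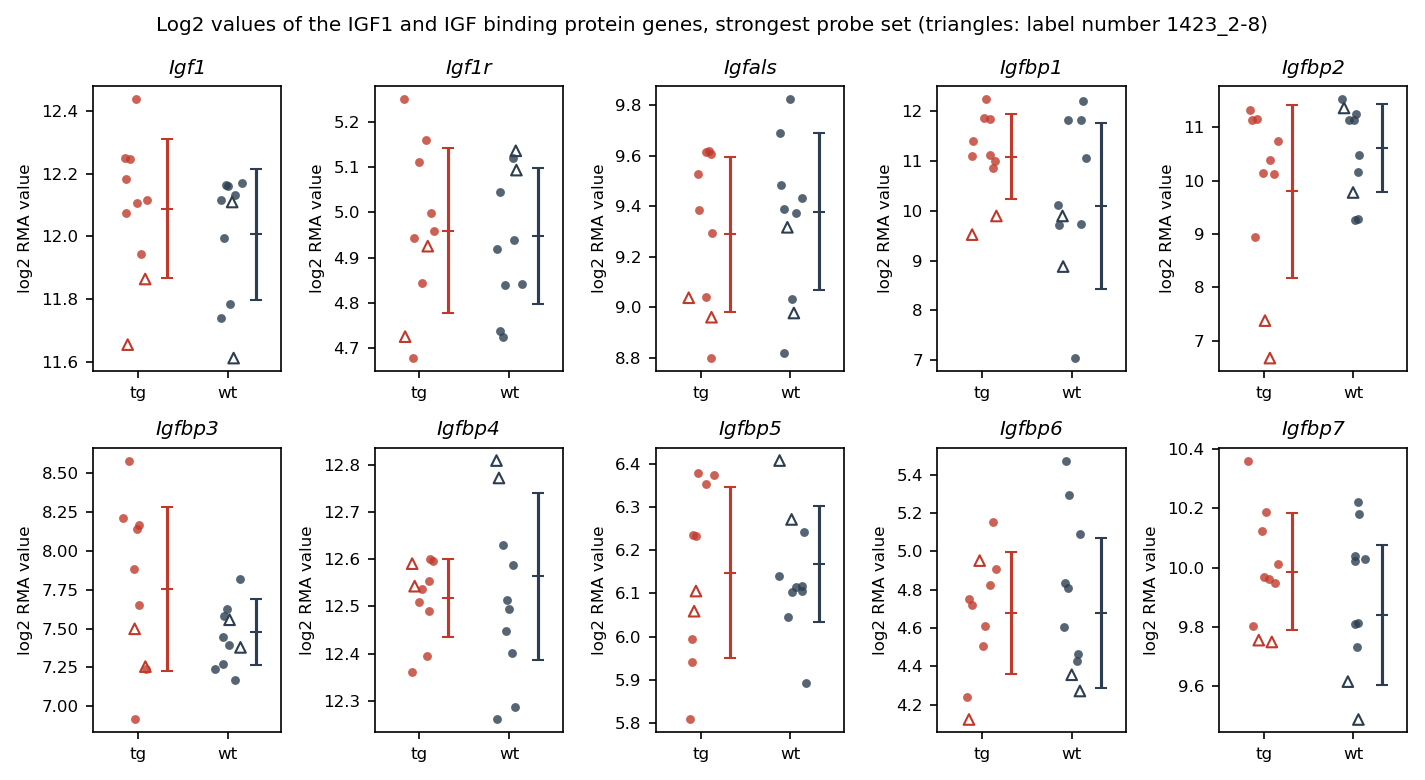
Log2 RMA values of the strongest probe set of each of the 10 genes, 1 point per array, with tg livers left of wt livers, mean ± SD as bars (wt: 8 profiles) and triangles for tg_1423_2-8 and wt_1423_2-8 livers. The genotypes overlap in every panel, and the 2 lowest Igfbp2 values, 6.68 and 7.38, are tg triangles.

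The spread of these binding proteins was large for this array. The SD within genotypes was 1.27 for *Igfbp1* and 1.30 for *Igfbp2*, and 99.6% of the 22551 probe sets above the median signal had a smaller one in either case. The median SD of those probe sets was 0.179. *Igf1* (0.215), *Igfals* (0.311) and the strongest *Igfbp4* probe set (0.143) were far less variable.

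*Igfbp3* (chromosome 11) encodes the main carrier of circulating IGF1, which in rat liver is made by non-parenchymal cells. Its probe set 1423062_at ranged from 6.91 over 7.77 to 8.58 in tg livers and from 7.17 over 7.42 to 7.82 in wt livers, and 5 tg livers lay above and 1 below every wt liver. The mean was 7.76 ± 0.53 in tg and 7.48 ± 0.21 in wt livers, a tg minus wt value of 0.31 (SE 0.166, limma adjusted p = 0.303). The second probe set, 1458268_s_at, gave 0.29 (SE 0.149, adjusted p = 0.284) and followed the first (r = 0.94 within genotypes over 20 arrays). The 10 stellate cell markers had a mean of 6.88 to 7.19 in tg and 6.88 to 7.25 in wt livers. Of them limma called 0 (1 higher and 0 lower at unadjusted p under 0.05), against 2.55% of all probe sets (20.4%).

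*Igfbp4* (chromosome 11), an inhibitor of IGF1 that proteases inactivate, was measured by 6 probe sets. The strongest, 1437405_a_at, averaged 12.52 ± 0.08 in tg livers and 12.56 ± 0.18 in wt livers, with a tg minus wt value of -0.00 (95% interval -0.14 to 0.13, limma adjusted p = 0.987). The 4 strongest probe sets moved together across livers (r = 0.96 to 0.98 within genotypes). The weakest, 1421991_a_at, followed them less (r = 0.38 to 0.44), ranged from 7.58 over 7.78 to 8.01 in tg and from 7.81 over 7.97 to 8.21 in wt livers, and gave a tg minus wt value of -0.19 (SE 0.063, unadjusted p = 0.00705, limma adjusted p = 0.101). It is 1 of the 2 probe sets that reached an unadjusted p under 0.05, and 5 of the 10 tg livers lay below every wt liver. Probe set 1421992_a_at followed it (r = 0.83 within genotypes) more than the 4 strongest (r = 0.68 to 0.71). That probe set gave a tg minus wt value of -0.16 (SE 0.081, limma adjusted p = 0.280), with 3 tg livers below every wt liver.

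*Igfbp5* and *Igfbp6* had close means in the genotypes on the strongest probe set of each. *Igfbp5* (chromosome 1), which binds extracellular matrix as well as IGF1, averaged 6.15 ± 0.20 in tg livers and 6.17 ± 0.13 in wt livers on its stronger probe set (0.00, limma adjusted p = 0.984). Its other probe set, 1452114_s_at, did not follow the first (r = -0.23 within genotypes) and spread over a 9.38-fold range, with an SD of 0.98 in tg and 0.94 in wt livers. *Igfbp6* (chromosome 15), which prefers IGF2 over IGF1, averaged 4.68 ± 0.32 in tg livers and 4.68 ± 0.39 in wt livers, near the median of all probe sets (-0.08, adjusted p = 0.794).

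*Igfbp7* (chromosome 5), a secreted protein of endothelial cells with low affinity for IGF1, gave 3 probe sets that disagreed in direction. The strongest, 1423584_at, averaged 9.99 ± 0.20 in tg livers and 9.84 ± 0.24 in wt livers (0.09, limma adjusted p = 0.614), and 1423585_at gave a tg minus wt value of -0.03 (adjusted p = 0.861). Probe set 1437804_at ranged from 6.42 over 6.62 to 6.89 in tg and from 6.61 over 6.78 to 6.93 in wt livers, with a tg minus wt value of -0.17 (SE 0.056, unadjusted p = 0.00610, limma adjusted p = 0.0955). It was lower in tg livers within 6 of 6 label numbers (-0.24 to -0.03) and had the lowest adjusted p of the 26. It hardly followed the strongest probe set across livers (r = 0.02 within genotypes). It passed in limma with the label number as a fixed block (adjusted p = 0.0433), without tg_1386_9 (adjusted p = 0.0268) and without tg_1386_9 and wt_1386_4 (adjusted p = 0.0467).

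*Igf1r* (chromosome 7), the receptor through which IGF1 acts and of which adult hepatocytes carry little, had a weak signal. Its strongest probe set, 1452982_at, averaged 4.96 ± 0.18 in tg livers and 4.95 ± 0.15 in wt livers (0.02, limma adjusted p = 0.909). The 5 *Igf1r* probe sets had correlations of -0.24 to 0.63 with each other across livers, so liver-to-liver differences of *Igf1r* cannot be read from them.

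In the rest of the growth hormone and IGF axis 1 gene passed the test. Of 28 listed genes 27 were measured, and limma called 1 higher and 0 lower (2 higher and 5 lower at unadjusted p under 0.05), with a median log2 fold change of 0.00. Of all probe sets 2.55% were called, and 20.4% had an unadjusted p under 0.05 in limma, so these counts do not set the list apart. The 1 gene was *Igf2*, the fetal growth factor bound by the same binding proteins, at 7.19 ± 1.59 in tg and 5.30 ± 0.70 in wt livers (1.93, SE 0.495, limma adjusted p = 0.0416). The call was lost in 14 of 20 fits without 1 array, those without any 1 wt array but wt_1386_4 and those without tg_1407_3, tg_1420_14, tg_1420_4, tg_1423_2-8_1 or tg_1423_2-8_4, with a log2 fold change of 1.66 to 2.15 over all 20 and an adjusted p of at most 0.0807 (without tg_1420_4). *Ghr*, the growth hormone receptor, gave a tg minus wt value of -0.08 (adjusted p = 0.730), *Stat5b* of 0.08 (adjusted p = 0.685) and *Socs2*, a feedback inhibitor that STAT5B induces, of 0.02 (adjusted p = 0.988). *Socs2* varied between livers, with 8.33 ± 1.21 in tg livers. Of the 7 relatives of the IGF binding proteins (CCN genes and *Esm1*), limma called 0 (0 at unadjusted p under 0.05).

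The lowest *Igfbp2* values lay in the tg_1423_2-8 livers. Their mean was 7.03, against 10.57 in the wt_1423_2-8 livers of the same number, a difference of -3.54, while the differences within the 5 other numbers were 0.64, 0.02, -0.14, -0.17 and -0.20. In a limma fit with genotype, this number and their interaction, chosen after the values had been seen, the interaction was -3.50 for *Igfbp2* (SE 0.842, adjusted p = 0.0362). It was the only 1 of the 26 probe sets that passed, where 1.8% of all probe sets did (14.7% at an unadjusted p under 0.05). At an unadjusted limma p under 0.05 the interaction was also negative for *Igf1* 1452014_a_at (-0.82) and 1419519_at (-0.56) and *Igf1r* 1452982_at (-0.39). The same held for every *Igfbp4* probe set but 1437406_x_at (-0.50 to -0.28). With only 2 livers of each genotype the *Igfbp2* call was unstable. It was lost in 8 of 20 fits without 1 array, with adjusted p of 0.250 without wt_1423_2-8_3, 0.127 without tg_1423_2-8_1 and 0.183 without tg_1423_2-8_4. In the other 5, without tg_1371_2, tg_1386_9, tg_1420_12, wt_1371_4 or wt_1420_1, it was 0.0502 to 0.0534 in limma.

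**Figure D3:**
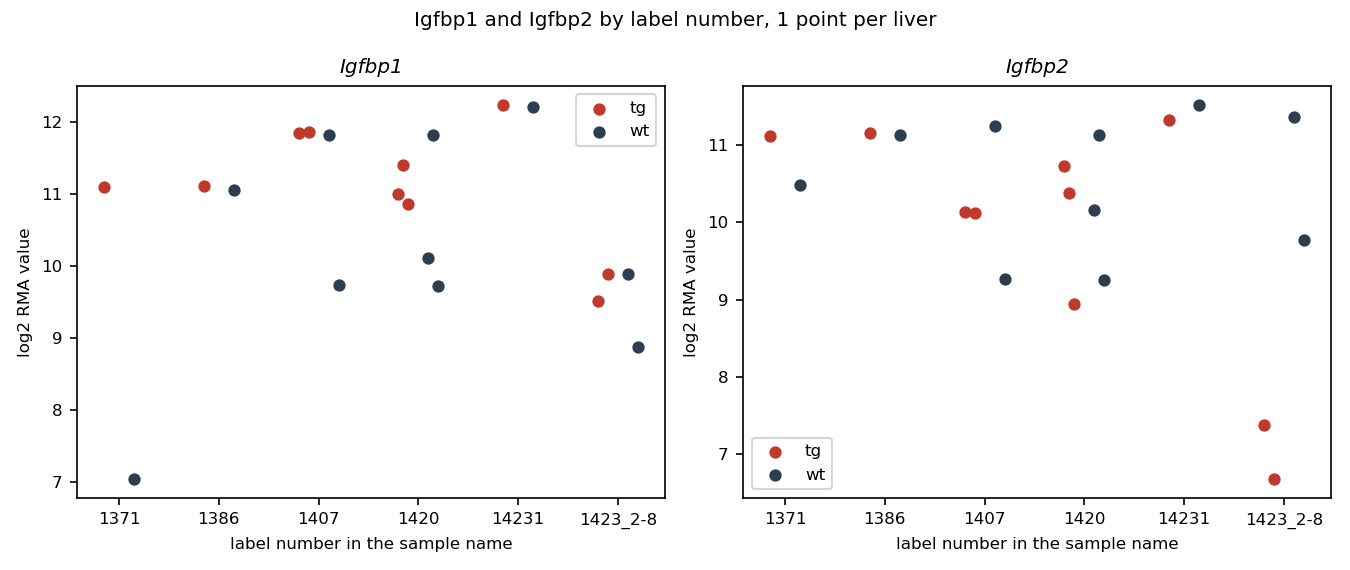
Log2 RMA values of Igfbp1 and Igfbp2 by the number in the sample name, 1 point per liver, tg left of wt. For Igfbp2, the tg mean minus the wt mean is -0.20 to 0.64 in 5 of the 6 numbers. Single livers of a number can lie further apart, such as wt_1407_2 at 11.25 and wt_1407_5 at 9.27. In the last number the tg_1423_2-8 livers are at 6.68 and 7.38 and the wt_1423_2-8 livers at 9.78 and 11.36.

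The same livers stood apart in other genes. The mean of 12 male-biased genes that depend on growth hormone was 7.11 in tg_1423_2-8_1, 7.59 in tg_1423_2-8_4 and 7.39 in wt_1423_2-8_9, against 10.72 in wt_1423_2-8_3 and 9.02 to 11.25 in the other 16 livers. The mean of 9 female-biased genes was 7.95, 7.52 and 8.83 in these 3 livers, against at most 7.03 in the others. The lowest of the other 16 for male-biased genes was tg_1420_4, the third tg liver with low *Igfbp2*. *Igfbp2* read 7.38 in tg_1423_2-8_1, 6.68 in tg_1423_2-8_4, 9.78 in wt_1423_2-8_9 and 11.36 in wt_1423_2-8_3. The 3 probe sets of *Xist*, which is expressed from an inactive X chromosome, read 2.21 to 4.74 over all 20 livers, and the sex of the mice is not given in the labels. With the male-biased mean as a covariate the *Igfbp2* interaction was -2.38 (limma adjusted p = 0.121). This fit does not separate causes, and the part of sex, growth hormone pattern and hour of killing in the *Igfbp2* values was not tested.

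*Igf1* varied together with *Igfals* and *Igfbp2* from liver to liver. In 9 relations of *Igf1* with the other genes, over 20 arrays with genotype means removed, *Igf1* and *Igfals* had r = 0.744 (permutation p = 2.2e-04, adjusted p = 0.000990) and rho = 0.671 (permutation p = 0.00202, adjusted p = 0.0110). Without wt_1423_2-8_9 and tg_1423_2-8_1, the livers farthest from the median of *Igf1*, r was 0.743 (permutation adjusted p = 0.00661). Within genotypes r was 0.763 in tg (permutation adjusted p = 0.0614) and 0.726 in wt livers (permutation adjusted p = 0.0792), so neither passed alone. In the 16 livers of the other label numbers r was 0.723 (permutation adjusted p = 0.0256) and rho was 0.547 (permutation adjusted p = 0.150), and without wt_1420_7 and wt_1407_5 r was 0.518 (permutation p = 0.115). The 4 tg_1423_2-8 and wt_1423_2-8 livers are too few for a value of their own.

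*Igf1* and *Igfbp2* had r = 0.748 (permutation p = 2.2e-04, adjusted p = 0.000990) and rho = 0.623 (permutation p = 0.00413, adjusted p = 0.0124), and r = 0.697 without the same 2 livers. Within genotypes r was 0.741 in tg (permutation adjusted p = 0.0614) and 0.841 in wt livers (permutation adjusted p = 0.0378). In the 16 other livers rho was 0.491 (permutation adjusted p = 0.161) and r was 0.623 (permutation adjusted p = 0.0480), and r was 0.280 (permutation p = 0.410) without wt_1420_7 and wt_1407_5, so among these 16 the relation rests on that near-identical pair. With the near-identical wt arrays averaged and the tg_1423_2-8 and wt_1423_2-8 livers left out (14 profiles), r was 0.510 (permutation p = 0.0787) for *Igfbp2* and 0.701 (permutation p = 0.00948) for *Igfals*.

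Over the 20 arrays *Igfbp1* related to *Igf1* by rank only, with rho = 0.669 (permutation p = 0.00244, adjusted p = 0.0110) and r = 0.525 (permutation p = 0.0167, adjusted p = 0.0502), and r was 0.374 without the 2 livers. In the 16 other livers neither passed (rho = 0.512, permutation adjusted p = 0.161, and r = 0.304, permutation adjusted p = 0.408). Over the 20 arrays *Igfbp5* passed by rank (rho = 0.532, permutation p = 0.0179, adjusted p = 0.0403) and not by r (0.394, permutation p = 0.0986, adjusted p = 0.222), while in the 16 other livers it passed by r (0.604, permutation adjusted p = 0.0306) and not by rank (rho = 0.603, permutation adjusted p = 0.0568). The relations with *Igf1r*, *Igfbp3*, *Igfbp4*, *Igfbp6* and *Igfbp7* did not pass by either measure over the 20 arrays or in the 16. In the 14 profiles r was 0.217 (permutation p = 0.492) for *Igfbp1* and 0.591 (permutation p = 0.0222) for *Igfbp5*.

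**Figure D4:**
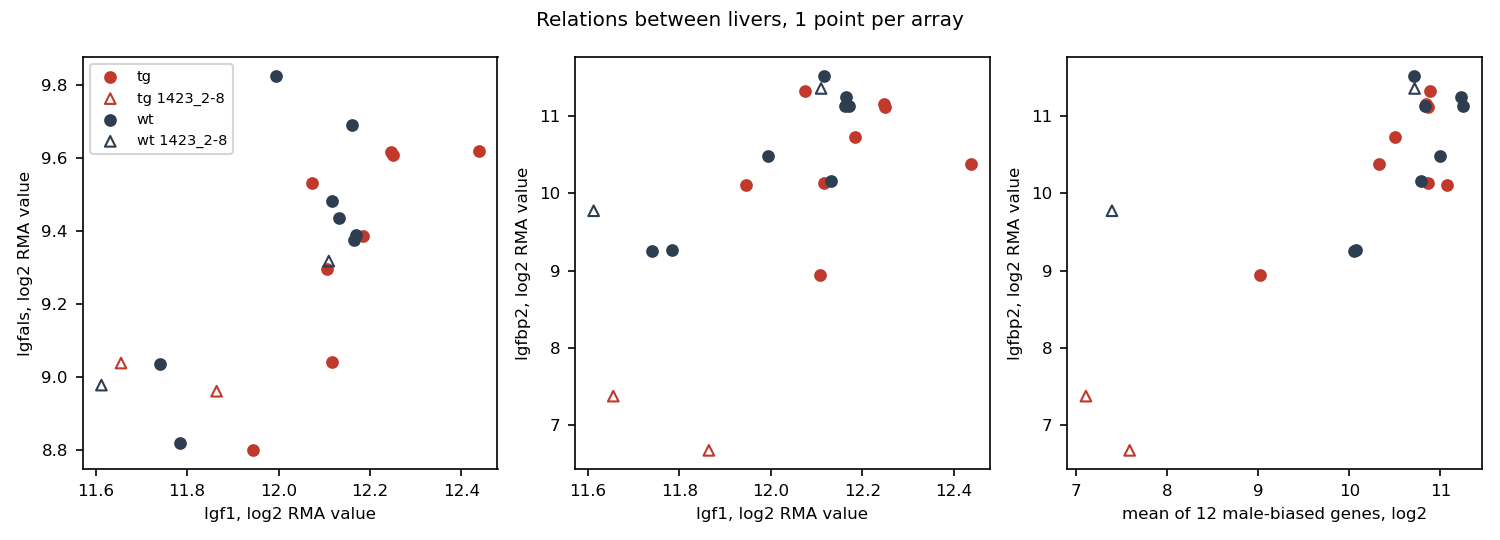
Log2 values of Igf1 against Igfals (left) and against Igfbp2 (middle), and the mean of 12 male-biased genes against Igfbp2 (right), 1 point per array, with triangles for tg_1423_2-8 and wt_1423_2-8 livers. Low Igf1 goes with low Igfals, and the 2 tg triangles have the lowest Igfbp2 at 6.68 and 7.38.

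The binding proteins also followed lists of liver genes, in 11 relations added after the values had been seen. Because the tg_1423_2-8 and wt_1423_2-8 livers form a cluster of their own in the clock genes, the relations were also tested in the 16 other livers. There *Igfbp2* had r = -0.862 with the mean of 9 feeding-induced genes such as *Fasn* (permutation p = 8e-05, adjusted p = 0.000880) and rho = -0.853 (permutation p = 1.2e-04), and r = -0.750 (permutation p = 0.00334) without wt_1407_5 and wt_1420_7. Over all 20 livers r was -0.545 (permutation adjusted p = 0.00935). Within genotypes it was -0.385 in tg (permutation adjusted p = 0.403) and -0.915 in wt livers (permutation adjusted p = 0.00253). *Igfbp2* and the male-biased mean had r = 0.818 (permutation adjusted p = 0.000990) over all 20 livers. In the 16 livers rho was 0.474 (permutation adjusted p = 0.0994) and r was 0.766 (permutation adjusted p = 0.00649), with r of 0.535 (permutation p = 0.0851) without tg_1420_4 and wt_1420_7, so the relation there rests on these livers. With the fasting-induced genes *Igfbp2* passed by rank in the 16 livers (rho = 0.638, permutation adjusted p = 0.0260) and not by r (0.565, permutation adjusted p = 0.0552). The near-identical wt arrays were also averaged and the tg_1423_2-8 and wt_1423_2-8 livers left out (14 profiles). There *Igfbp2* had r = -0.846 (permutation p = 2.8e-04) with the feeding-induced, 0.719 (permutation p = 0.0102) with the male-biased and 0.600 (permutation p = 0.0325) with the fasting-induced genes.

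*Igf1* and the male-biased mean had r = 0.759 over all 20 livers (permutation adjusted p = 0.000990). Within genotypes r was 0.703 in tg (permutation adjusted p = 0.0582) and 0.846 in wt livers (permutation adjusted p = 0.00627). It was 0.326 (permutation adjusted p = 0.276) in the 16 livers, and 0.515 (permutation adjusted p = 0.0716) without tg_1423_2-8_1 and wt_1423_2-8_9, so the relation rests on the tg_1423_2-8 and wt_1423_2-8 livers. *Igf1* and the feeding-induced mean had r = -0.487 over all 20 livers (permutation adjusted p = 0.0493) and -0.529 in the 16 (permutation adjusted p = 0.0753), and -0.333 (permutation adjusted p = 0.245) without wt_1407_5 and wt_1420_7. It was -0.438 (permutation adjusted p = 0.113) with the near-identical wt arrays averaged, and so did not pass. With the fasting-induced mean *Igf1* had r = -0.02 (permutation adjusted p = 0.918).

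*Igfbp1* and the mean of 9 fasting-induced genes such as *Pck1* had r = 0.608 (permutation p = 0.00980, adjusted p = 0.0270) and rho = 0.724 (permutation p = 0.00205) in the 16 livers, and r = 0.681 (permutation p = 0.00241) without wt_1420_1 and tg_14231_6. Over all 20 livers r was 0.445 (permutation adjusted p = 0.0871). With the feeding-induced genes, *Igfbp1* passed by rank in the 16 livers (rho = -0.638, permutation adjusted p = 0.0260) and not by r (-0.365, permutation adjusted p = 0.276). With the male-biased mean it likewise passed by rank there (rho = 0.609, permutation adjusted p = 0.0260) and not by r (0.282, permutation adjusted p = 0.276). Over all 20 livers that r was 0.542 (permutation adjusted p = 0.0182), with 0.905 in tg (permutation adjusted p = 0.00231) and 0.373 in wt livers (permutation adjusted p = 0.302). In the 14 profiles *Igfbp1* had r = 0.601 (permutation p = 0.0280) with the fasting-induced, -0.350 (permutation p = 0.340) with the feeding-induced and 0.192 (permutation p = 0.401) with the male-biased genes.

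*Igfbp3* followed the mean of the stellate markers, with r = 0.675 (permutation p = 2.6e-04, adjusted p = 0.000990) and rho = 0.663 (permutation p = 0.00281, adjusted p = 0.00618) over 20 livers. Within genotypes r was 0.731 in tg (permutation adjusted p = 0.0570) and 0.839 in wt livers (permutation adjusted p = 0.00865). Without wt_1371_4 and tg_1407_9, r was 0.544 (permutation adjusted p = 0.0531). In the 16 livers r was 0.754 (permutation adjusted p = 0.00181), and in the 14 profiles 0.758 (permutation p = 6.2e-04). The strongest *Igfbp7* probe set, 1423584_at, followed the mean of 12 endothelial markers, with r = 0.713 (permutation p = 7.5e-04, adjusted p = 0.00206) and rho = 0.714 (permutation p = 8.6e-04, adjusted p = 0.00370), and r = 0.656 (permutation adjusted p = 0.0260) without wt_1423_2-8_3 and tg_1420_12. Its other probe sets, of which 1437804_at hardly followed it, were not related to these markers in any test. Within genotypes r of 1423584_at was 0.601 in tg (permutation adjusted p = 0.149) and 0.788 in wt livers (permutation adjusted p = 0.0196). In the 16 livers r was 0.559 (permutation adjusted p = 0.0552), with rho = 0.568 (permutation adjusted p = 0.0437). In the 14 profiles r was 0.518 (permutation p = 0.0722). Of these endothelial markers 1, *Lyve1*, was called higher, as were 1.88% of all probe sets, and their mean was 6.73 to 7.17 in tg and 6.41 to 6.98 in wt livers.

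**Figure D5:**
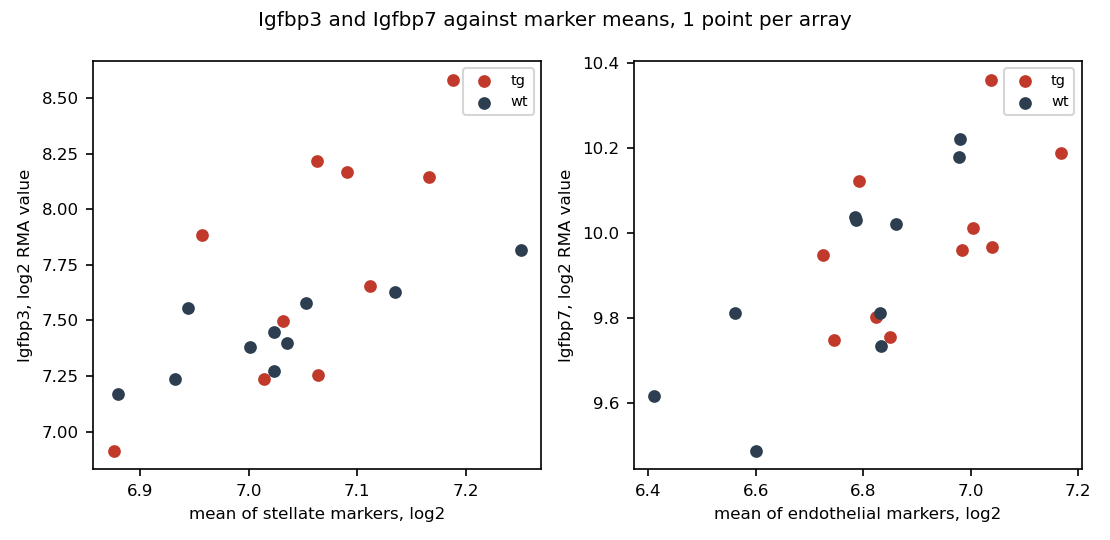
Log2 values of Igfbp3 against the mean of 10 stellate markers (left) and of Igfbp7 against the mean of 12 endothelial markers (right), strongest probe set of each gene, 1 point per array. Both vary together in tg and in wt livers, with r within genotypes of 0.731 and 0.839 for Igfbp3.

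The genes whose pattern over the 20 arrays was most like that of a binding protein are given as a description, with Pearson r after removal of genotype means, out of 11775 genes. All 20 points share the near-identical arrays and the tg_1423_2-8 and wt_1423_2-8 livers. For *Igf1* they were *Mbl1*, a mannose-binding lectin of hepatocytes (0.921), the succinate receptor *Sucnr1* (0.897) and *Hsd17b2* (0.892), which oxidizes sex steroids. For *Igfals* they were *Nrp1* (0.882), *Iffo1* (0.837) and *Arrdc3* (0.837). For *Igfbp1* they were *Irf2bp2* (0.894), the insulin receptor substrate *Irs2* (0.777) and *Etnppl* (0.769). For *Igfbp2* they were the cysteine dioxygenase *Cdo1* (0.954), *Akr1c6* (0.947) and the alcohol dehydrogenase *Adh4* (0.938). For *Igfbp3* they were the collagen gene *Col14a1* (0.950), *Gucy1a1* (0.901), a subunit of the nitric oxide receptor, and *Lhfp* (0.833). For *Igfbp4* they were *Rxra* (0.928), *Dcaf1* (0.917) and *Ddx46* (0.900), and for *Igfbp7* *Fabp4* (0.885), a fatty acid carrier of capillaries and fat, *Ccdc61* (0.880) and *Vcl* (0.866). For *Igfbp5* they were *Rap2a* (0.804), *Ermard* (0.782) and *Cntrob* (0.781), and for *Igfbp6* *Pccb* (0.852), *Uxt* (0.850) and *Ppp1r1b* (0.844). *Igf1r* had the lowest values, with *4930533B01Rik* and *Usf2* both at 0.717 and *Tmem98* at 0.688.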

How the data were processed

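RNA from livers of 10 *IMP2-2* tg and 10 wt mice was hybridized to Affymetrix Mouse Genome arrays, 1 per liver. The deposited log2 values, normalized by the authors with RMA, were used as they are. For RMA, the version is not stated. Raw scans were not read, and the number of arrays limits the precision.

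Of 45101 probe sets, 34958 carry 1 symbol, 932 several and 9211 none in the supplied annotation, and 0 symbols changed through RefSeq. All probe sets of a member are given, and the one with the highest mean stands for its gene. limma 3.58.1 in R 4.3.3 fitted genotype to 20 arrays, with Benjamini-Hochberg adjustment over all probe sets and a threshold of 0.05. Correlations used 100000 permutations within genotype in Python 3.11.15 (numpy 2.4.6, pandas 2.3.3, scipy 1.17.1), adjusted over each family. These permutations took every array as a separate liver, except where the near-identical wt arrays were averaged. Figures used matplotlib 3.10.9.

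The members, gene lists and label number were chosen with earlier results of these data known. Named were all members, *Ghr*, *Igf2*, *Stat5b* and *Socs2*, other axis genes that passed, and the 3 genes most like each member. Functions were tested on simulated data. Same-numbered arrays were not paired, since the meaning of the numbers is not given. Alternatives were the number as a block, other normalization and empirical Bayes settings, array weights, covariates and left-out arrays.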

Additional observations from a re-analysis of the deposited data

Results flagged for a closer look

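For *Igfbp2*, the genotype difference in the tg_1423_2-8 and wt_1423_2-8 livers differed from that in the other livers by -3.50 (SE 0.842, limma adjusted p = 0.0362 for the interaction), so it was marked because 2 sets of livers differed under the same contrast. Both tg_1423_2-8 livers were below both wt_1423_2-8 livers. The test was chosen after the values were seen. Of 52 groups of 10 arrays tested for a single far-off liver by Dixon's criterion, 0 were marked, where chance alone would mark about 1 in 20.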

How the results depend on the processing

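Over 13 alternatives and 20 fits without 1 array, limma called 0 member probe sets higher. The number lower was 1 with the label number as a fixed replicate block and 1 without tg_1386_9 and wt_1386_4, and 0 to 1 in fits without 1 array, each time *Igfbp7* 1437804_at (adjusted p = 0.0433 with the replicate block). With the label number as a random replicate block it was 0. Same-numbered arrays deviated together with a mean correlation of 0.079 to 0.382, and 4 of 6 numbers were closest to themselves, a hint from the data of something shared, while the labels do not say what the numbers mean. Of the member differences recomputed, 30 of 335 and, without 1 array, 57 of 520 changed sign, and 0 moved by 1 SD or more. Of the 4 probe sets of at least 0.2 log2, the sign changed once, for *Igfbp2* without tg_1420_4 and both tg_1423_2-8 livers (0.18). These are the lowest tg livers for *Igfbp2*, so a rise of the difference was fixed in advance.

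The count of other axis genes higher in tg was 3 with the fixed replicate block (*Igf2*, *Grb10* and *Pik3r1*). It was 0 with trend and robust settings, array weights, averaged wt pairs, without the 4 tg_1423_2-8 and wt_1423_2-8 arrays, without the 3 tg livers named above, with the male-biased covariate and with second probe sets, where 1 was lower (*Igfbpl1*, adjusted p = 0.0144). It was 0 to 1 without 1 array. The *Igfbp2* interaction was -3.40 (adjusted p = 0.0529) with averaged wt pairs, -3.49 (0.0551) without tg_1386_9 and wt_1386_4, -2.38 (0.121) with the male-biased covariate and -4.30 to -2.71 without 1 array. The causes were not tested. Signal near the median of all probe sets limits *Igf1r* and *Igfbp6*.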
